A study of Rattus norvegicus with 20 samples.

Results

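The genes described here mark the basal layer of the oesophageal lining, at rest and at a wound edge. They were chosen by name, with earlier results of these data known. The list held 10 genes, 7 of them genes of the resting basal layer (Krt5, Krt14, Krt15, Tp63, Sox2, Col17a1 and Itga6) and 3 wound keratins (Krt6a, Krt16 and Krt17). On the array 9 of the 10 were named and tested among 13597 genes. No row was named Krt6a. The array's row LOC683313, which its description calls similar to keratin 6a and which the GRCr8 annotation names Krt6c, is given in its place and is not counted as a member. Whether these probes can tell Krt6a and Krt6c apart was not checked.

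Oesophageal tissue of Wistar rats was measured in 5 groups of 4, on 20 one-colour arrays. Sham rats had the mock operation, and the other groups had surgery that causes reflux oesophagitis, an inflammation of the gullet by refluxed gastric content. Of the operated groups, untreated rats had no drug, 2 groups had STW5, a liquid mixture of medicinal plant extracts, at 0.5 ml/kg (low dose) or 2 ml/kg (high dose), and 1 group had omeprazole, an inhibitor of gastric acid secretion, at 30 mg/kg. Drugs were given for 7 days before and 10 days after surgery. The age and sex of the rats are not given in the sources used here.

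The oesophagus is lined by a stratified squamous epithelium whose basal cells divide, stay fixed to the basement membrane and supply the layers above. Basal cells carry the keratin pair Krt5 and Krt14, with Krt15 in the quieter ones. Tp63 and Sox2 are transcription factors that keep squamous basal identity, and Col17a1 and Itga6 are parts of the hemidesmosome, the anchor to the basement membrane. When squamous epithelium is wounded, cells at its edge switch on Krt6, Krt16 and Krt17, keratins that go with migration and rapid turnover.

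Values are log2 signals relative to the 75th percentile of each array, so 0 is that percentile and 1 unit is a doubling. They compare samples of 1 gene and not genes with each other. Low-dose replicates 1 and 2 differed hardly more than spots within an array (a spread ratio of 1.127, against 2.165 or more for other pairs) and were averaged, which left 19 samples. The pair next in likeness crossed groups, sham replicate 2 and omeprazole replicate 2. Slide 1 held the sham arrays, slide 2 the untreated and low-dose ones, and slide 3 the high-dose and omeprazole ones, so slide cannot be told apart from surgery, from omeprazole or high-dose STW5 against untreated rats, or from the dose of STW5. In the deposited value table the 8 STW5 columns match scanner files of the opposite dose, and which dose label is right is unknown. Doses below follow the scanner files. In sham replicate 4, markers of gastric columnar cells averaged 4.88 above their mean over samples. All 7 resting basal genes were well above background on all 20 arrays, as were all 15 pan-epithelial and all 9 skeletal muscle markers, so the tissue held both epithelium and muscle.

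After surgery without a drug, 4 of the 7 resting basal genes fell against sham: Col17a1, Sox2, Krt15 and Tp63, by 1.98-fold to 2.47-fold. Krt5, Krt14 and Itga6 did not pass the test, and neither did any wound keratin. The same 4 genes were higher than in untreated rats under low-dose STW5 and under omeprazole. The 4 lower members of 9 stand beside 17.9% of all genes tested that were lower and 15.0% that were higher (limma, Benjamini-Hochberg adjusted p under 0.05). In bulk tissue, fewer cells of a type and less RNA per cell cannot be told apart.

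Col17a1, the transmembrane collagen XVII of the hemidesmosome, read 2.48, 3.04, 3.29 and 2.68 in the sham samples and 1.36, 2.26, 1.52 and 1.53 in the untreated ones. Every untreated sample lay below every sham sample. It was 2.31-fold lower after surgery (log2 change -1.21 ± 0.27 (SE), n = 4 and 4, limma adjusted p = 0.0034). Omeprazole samples read 2.37, 3.09, 3.08 and 3.09, all above the untreated ones, a rise of 1.24 ± 0.27 (adjusted p = 0.0037 in limma). The low-dose samples read 3.33, 2.05 and 2.38 and overlapped the untreated ones through replicate 3, at 2.05 against 2.26 in untreated replicate 2. Their rise was 0.92 ± 0.29 (limma adjusted p = 0.021), and it missed the threshold without untreated replicate 1 or without the averaged low-dose replicates 1-2 (highest adjusted p = 0.16).

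Sox2, the transcription factor that holds foregut cells to a squamous fate, read 3.06, 3.13, 3.53 and 2.73 in sham and 1.55, 2.75, 0.75 and 2.19 in untreated samples. Untreated replicate 2 reached the lowest sham value, and the other 3 lay below it. The fall was -1.31 ± 0.30 (limma adjusted p = 0.0042). Low-dose samples read 3.75, 3.30 and 3.47, above all untreated ones, and this was the largest rise among the members called (1.70 ± 0.33, a 3.25-fold difference, adjusted p = 0.00097 in limma). Omeprazole samples read 2.81, 2.86, 2.98 and 3.03, a narrow range that also lay above the untreated group (1.11 ± 0.30, limma adjusted p = 0.013).

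Krt15, the keratin of quieter basal cells, read 6.84, 6.65, 6.82 and 6.01 in sham and 5.27, 6.25, 4.59 and 5.92 in untreated samples. Only untreated replicate 2 lay above the lowest sham sample. Krt15 fell by 1.07 after surgery (SE 0.28, limma adjusted p = 0.0092). It was higher by 1.14 ± 0.31 under low-dose STW5, at 6.94, 6.46 and 6.54 (limma adjusted p = 0.0086), with no overlap. Omeprazole samples, at 6.25, 6.61, 6.60 and 6.71, were higher by 1.03 ± 0.28 (limma adjusted p = 0.013).

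Tp63, the p63 transcription factor that basal identity depends on, read 3.32, 3.51, 3.61 and 2.91 in sham and 1.72, 3.31, 2.25 and 2.15 in untreated samples. Untreated replicate 2 lay within the sham range. The fall was -0.98 ± 0.29 (limma adjusted p = 0.015), and it missed the threshold without untreated replicate 1 (adjusted p = 0.058). Low-dose samples at 3.65, 3.15 and 3.35 were higher by 1.03 ± 0.31 (limma adjusted p = 0.016), a call lost without untreated replicate 1 or low-dose replicates 1-2. Omeprazole samples at 2.52, 3.49, 3.32 and 3.27 were higher by 0.79 ± 0.29, close to the threshold (limma adjusted p = 0.048), and 6 of 8 fits that left out 1 sample missed it.

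**Figure D1:**
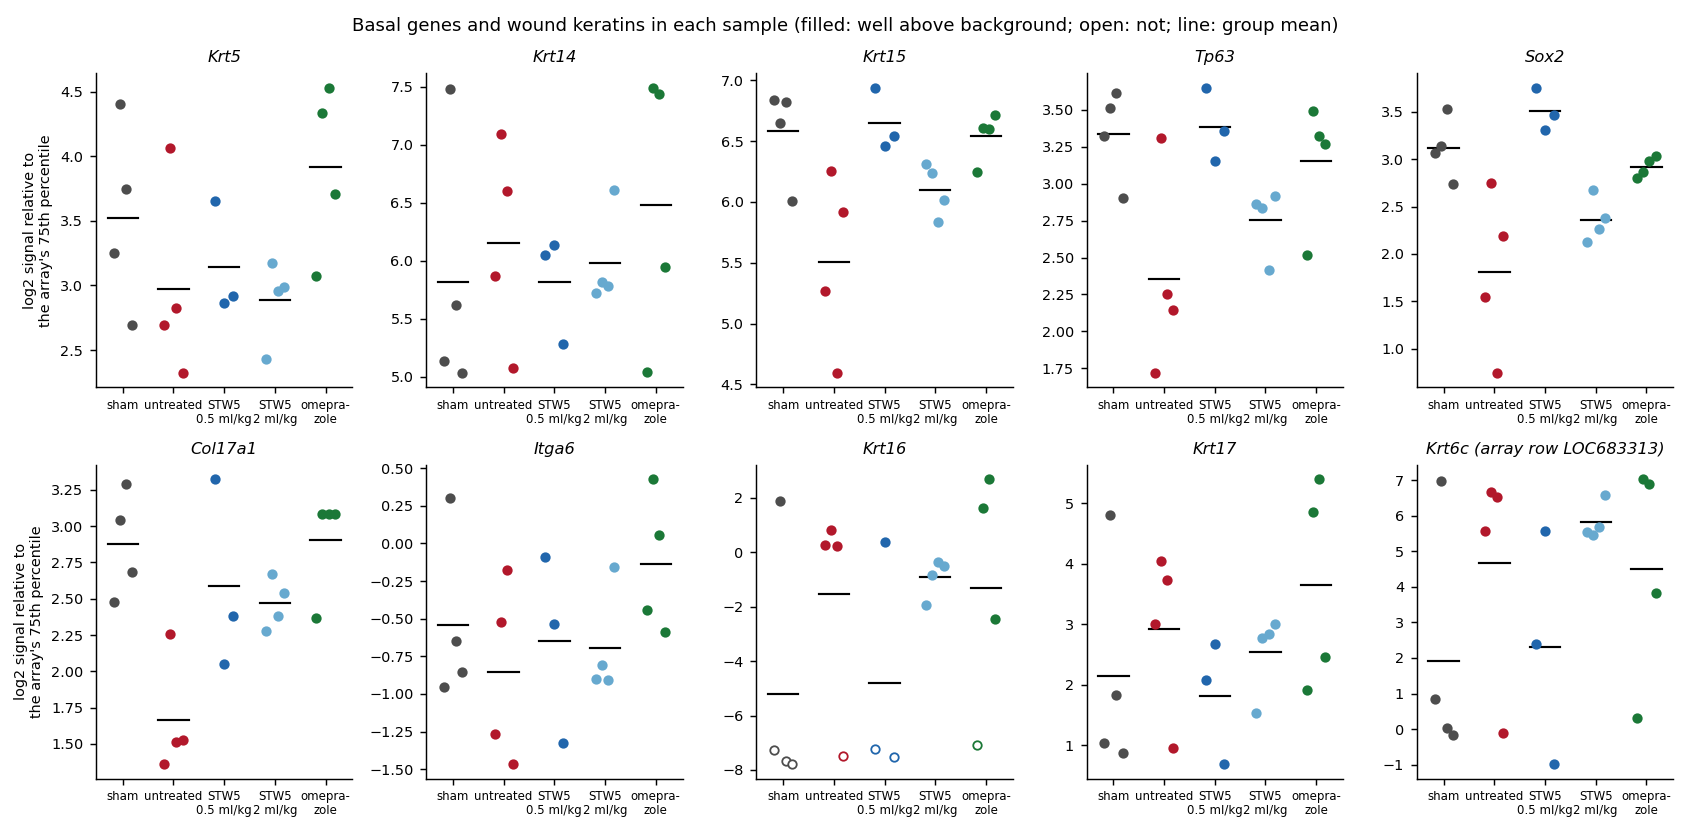
Log2 signal of each gene relative to the 75th percentile of its array (y axis, 1 panel per gene) in the 19 samples by group (x axis). Points are samples, filled where the probe was well above background and open where it was not, and lines are group means. All 4 untreated Col17a1 samples lie below the sham ones, while Krt16 is open in 3 of 4 sham samples and filled in all 4 high-dose samples.

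The 4 rises of 9 members under low-dose STW5 stand beside 21.7% of all genes higher and 15.9% lower than in untreated rats, and the 4 under omeprazole beside 15.6% higher and 12.2% lower. Fitted on 2 groups alone, fewer of these calls passed, and fewer genes overall (lower in 7.69% of all genes after surgery, higher in 10.5% under low dose and in 11.0% under omeprazole). Of the surgery calls, Col17a1 remained (limma adjusted p = 0.023), with 0.057 for Sox2, 0.074 for Tp63 and 0.075 for Krt15. For low dose against untreated, which is the fit within slide 2, Sox2 remained (limma adjusted p = 0.037), with 0.077 for Krt15, 0.085 for Tp63 and 0.10 for Col17a1. For omeprazole, Col17a1 remained (limma adjusted p = 0.014), with 0.062 for Krt15, 0.071 for Sox2 and 0.14 for Tp63. Leaving out sham replicate 2, the array most like an omeprazole one, left all 4 falls past the threshold, from -1.30 for Sox2 to -0.92 for Tp63 (adjusted p 0.0083 to 0.034 in limma). Leaving out sham replicate 4 also left all 4, from -1.43 for Sox2 to -1.13 for Tp63.

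High-dose STW5 gave no call among the members against untreated rats, where 5.13% of all genes were higher and 4.37% lower. Col17a1 came nearest, at 2.28, 2.67, 2.38 and 2.54. All 4 samples lay above the untreated ones, and the difference of 0.80 ± 0.27 (95% interval 0.23 to 1.38) had a limma adjusted p of 0.069. The second Col17a1 probe gave 0.41 ± 0.25 (limma adjusted p over all probes = 0.29). Sox2 read 2.13, 2.67, 2.26 and 2.38, between the untreated and sham means, with a difference of 0.55 ± 0.30 from untreated (95% interval -0.09 to 1.19). Without untreated replicate 2, the untreated sample with the highest values of Sox2, Krt15, Tp63 and Col17a1, 3 members passed for high dose against untreated: Col17a1 at 1.00, Sox2 at 0.87 and Krt15 at 0.84 (limma adjusted p of 0.024, 0.039 and 0.048), beside 8% of all genes higher and 6.98% lower. Between the doses 1 member passed the test, Sox2, which was lower at the high dose by 1.15 (SE 0.33, 2.22-fold, limma adjusted p = 0.020), beside 13.2% of all genes lower and 10.7% higher. No high-dose Sox2 sample reached a low-dose one. That call was lost without low-dose replicates 1-2 (adjusted p = 0.096). The second Sox2 probe gave -1.23 ± 0.51 between the doses (limma adjusted p over all probes = 0.088). Sox2 also did not pass between the doses relative to the mean of pan-epithelial genes, a reference described below. With the replicate number as a block on all 20 arrays, Sox2 was at -1.21 (limma adjusted p = 0.0060) and Tp63 also passed, at -0.70 (0.046), beside 14.6% of all genes higher and 22% lower. That blocked fit counts the near-identical low-dose replicates 1 and 2 as separate samples, so its p-values can be too small. It was set beside this comparison because of correlations in these same data, so it is no independent support. Krt15 and Tp63 did not overlap between the doses either, but their differences of -0.55 ± 0.31 and -0.63 ± 0.31 had limma adjusted p of 0.20 and 0.14. The share of all genes without overlap between the doses is not given here, so the lack of overlap is a description only. The second Tp63 probe gave only -0.08 ± 0.19 between the doses (limma adjusted p over all probes = 0.78).

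The dose result depends on which labels are right. With the value table's own column labels, the call moved to the other dose: Sox2 was higher at the high dose by 1.28 (limma adjusted p = 0.011). There, no member passed for low dose against untreated and 4 did for high dose, Sox2 at 1.80, Krt15 at 1.23, Tp63 at 1.13 and Col17a1 at 1.02. With those labels, 3.82% of all genes were higher and 4.89% lower for low dose against untreated, and 25.2% and 13.9% for high dose.

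Against sham, no member passed the test in any drug group. With arrays weighted by their quality, 6 of 9 passed under the high dose (Krt5, Krt15, Tp63, Sox2 and Col17a1 lower, Krt16 higher) and 2 under omeprazole (Krt16 and Krt17, higher). In that weighted fit 22.3% of all genes were higher and 29.8% lower under the high dose, and 13.4% and 12.8% under omeprazole. In the unweighted fit 0.00735% were higher and 0% lower under low-dose STW5, 6.05% and 2.49% under the high dose, and 1.55% and 0.0147% under omeprazole. Under omeprazole, Col17a1 differed from sham by 0.03 (95% interval -0.54 to 0.61) and Krt15 by -0.04 (-0.64 to 0.56). Under low-dose STW5, Tp63 differed from sham by 0.05 (-0.61 to 0.70) and Krt15 by 0.07 (-0.58 to 0.72). High-dose Sox2 lay below every sham sample, with a change of -0.75 ± 0.30 (limma adjusted p = 0.13, interval -1.40 to -0.11). The drug groups also gave no member call against each other apart from Sox2 between the doses, in comparisons where 0.191% of genes were higher and 0.0294% lower (high dose against omeprazole) or 0.618% and 1.79% (low dose against omeprazole).

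**Figure D2:**
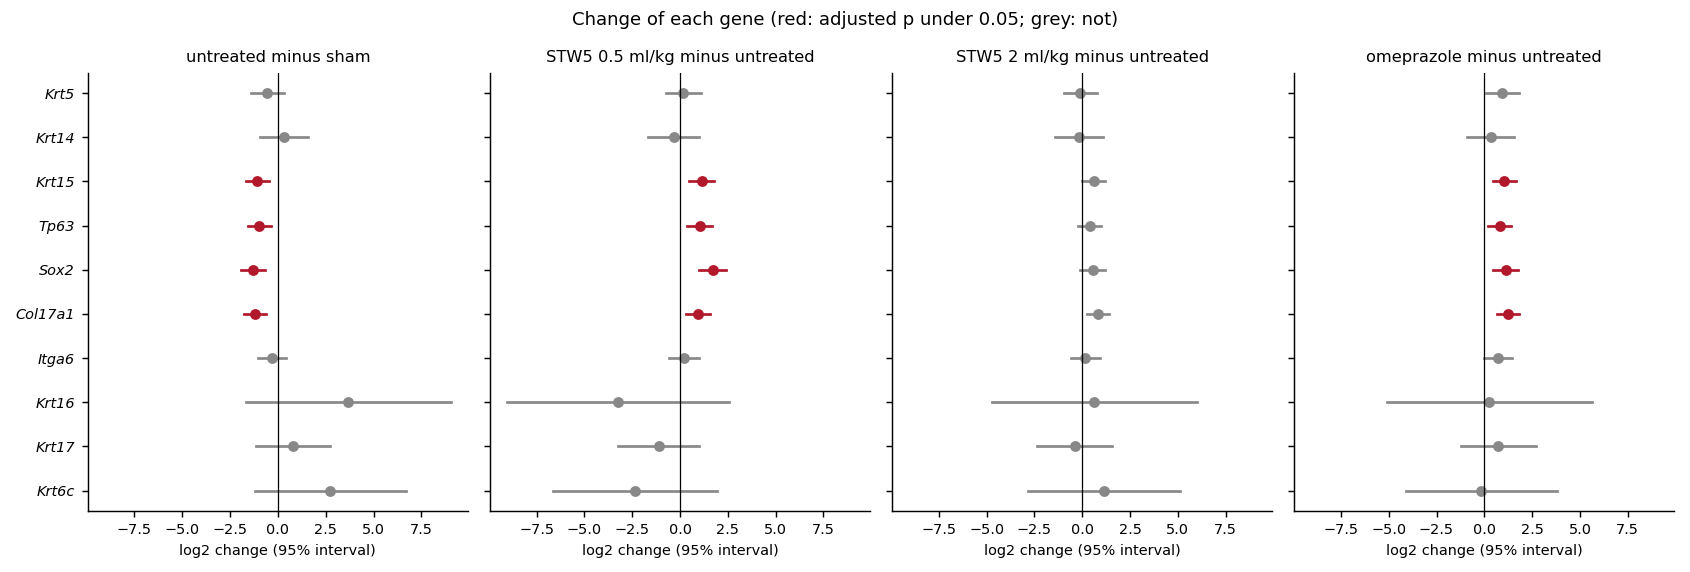
Log2 change of each gene (x axis) with its 95% interval from the limma fit, for 4 comparisons; red marks an adjusted p under 0.05. Krt15, Tp63, Sox2 and Col17a1 are red on the left of 0 after surgery and on the right under low-dose STW5 and omeprazole, and the intervals of Krt16 and Krt6c span several log2 units.

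The other 3 resting basal genes passed in none of the comparisons. Krt5, the type II keratin that pairs with Krt14, changed after surgery by -0.55 ± 0.41 (limma adjusted p = 0.32) and under omeprazole by 0.94 ± 0.41 (adjusted p = 0.096). Itga6, the integrin alpha 6 chain that joins laminin to the hemidesmosome, changed after surgery by -0.32 ± 0.35 (limma adjusted p = 0.52). Krt14, the type I basal keratin, read 5.14, 7.49, 5.62 and 5.03 in sham samples. Untreated samples read 5.87, 7.09, 6.60 and 5.07, low-dose samples 6.05, 6.14 and 5.28, high-dose samples 5.72, 5.82, 5.79 and 6.61, and omeprazole samples 5.04, 7.50, 7.44 and 5.94. The groups overlapped throughout, and the surgery difference was 0.34 ± 0.59 (95% interval -0.91 to 1.59). Sham replicate 2 and omeprazole replicates 2 and 3 were the 3 highest samples.

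Wound keratin values varied widely within groups. Krt16, a type I keratin made at wound edges, was well above background on 1 of 4 sham, 3 of 4 untreated, 1 of 4 low-dose, 4 of 4 high-dose and 3 of 4 omeprazole arrays. On the 8 arrays where it was not, its signal was 3.1 to 6.2 units, and on the other 12 it was 172 to 6880 units. The value behind it comes from 1 probe of 60 bases, and so does that of Krt17. Both probes are shown because the values of these 2 keratins rest on them. Both lie on the minus strand of chromosome 10 in rn4, that of Krt16 at chr10:89176869-89176928 and that of Krt17 at chr10:89187269-89187328, and start at bases 582 and 826 of their transcripts. No base is capitalised, since the whole probe is the target, and each sequence has at least 1 reading frame without a stop codon.
Krt16 probe: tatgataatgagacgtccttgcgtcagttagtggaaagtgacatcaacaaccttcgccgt
Krt17 probe: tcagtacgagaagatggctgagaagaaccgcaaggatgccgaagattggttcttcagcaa

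In sham rats Krt16 was measured in replicate 2 alone, at 1.89. The untreated samples that had it read 0.26, 0.82 and 0.24, without replicate 4. High-dose samples read -1.95, -0.83, -0.35 and -0.52. All 4 high-dose animals had the transcript, at levels below the untreated samples that had it. Low-dose replicate 3 read 0.39, and omeprazole replicates 2, 3 and 4 read 1.64, 2.71 and -2.46. With such a spread no comparison passed the test: the surgery difference was 3.67 ± 2.54 (95% interval -1.69 to 9.03, limma adjusted p = 0.29). Samples below background have no order among themselves, so these differences depend on the floor. With signals raised to the lowest level well above background, the surgery difference was 2.56.

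Krt17, a type I keratin of wounded and proliferating epithelium, was well above background on all 20 arrays. It read 1.03, 4.81, 1.84 and 0.87 in sham and 3.00, 4.04, 3.73 and 0.94 in untreated samples. Sham replicate 2 was the highest of these 8, and untreated replicate 4 lay among the other sham samples. Low-dose samples read 2.08, 2.68 and 0.68, high-dose samples 1.53, 2.77, 2.84 and 3.01, and omeprazole samples 1.91, 4.85, 5.41 and 2.46. Every pair of groups overlapped, and the surgery difference of 0.79 ± 0.92 had a limma adjusted p of 0.54.

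Krt6c, a type II keratin of the Krt6 group, was well above background on all 20 arrays and varied widely. It read 0.85, 6.98, 0.03 and -0.17 in sham and 5.57, 6.66, 6.53 and -0.10 in untreated samples. Low-dose samples read 2.38, 5.56 and -0.99, and omeprazole samples 0.31, 7.04, 6.88 and 3.82. High-dose samples were close together at 5.53, 5.45, 5.68 and 6.59. Values above 5 were found in sham replicate 2, untreated replicates 1 to 3, low-dose replicate 3, all high-dose samples and omeprazole replicates 2 and 3, all of which also had Krt16 above background. Omeprazole replicate 4 had Krt16 above background with Krt6c at 3.82. The surgery difference was 2.74 ± 1.88 (limma adjusted p = 0.28), and that of high-dose against sham was 3.89 ± 1.88 (95% interval -0.07 to 7.85, adjusted p = 0.20).

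Without sham replicate 2 the surgery differences grew to 6.04 for Krt16 (limma adjusted p = 0.057), 4.43 for Krt6c (0.063) and 1.68 for Krt17 (0.13), and none passed. Without untreated replicate 4, that of Krt16 was 5.65 (limma adjusted p = 0.097). These animals keep their labels, and no sample was moved between groups. In sham replicate 2 a list of pan-epithelial genes averaged 0.60 above its mean over samples, against -0.24 to 0.54 in the other 3 sham samples. A list of activated keratinocyte genes averaged 0.76, against -1.30 to -0.59.

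Krt6c and Krt5 both lie on chromosome 7 and varied unlike each other here: Krt6c ranged from -0.17 to 6.98 among sham samples and Krt5 from 2.69 to 4.41. The 250 bases before their transcription starts are shown for that reason, from RefSeq on GRCr8, where they lie on the minus strand at chr7:134682754-134683003 for Krt6c and chr7:134730570-134730819 for Krt5. Of the members, 4 of 10 had an entry there (Krt5, Col17a1, Sox2 and Tp63), as did Krt6c. Capitals mark matches on either strand to 5 motifs: TATANA for the TATA box, CCAAT for the CCAAT box, TGANTCA for AP-1, GCCNNNGGC for AP-2 and GGGCGG for Sp1. No motif of these 2 windows overlapped another.
Krt6c: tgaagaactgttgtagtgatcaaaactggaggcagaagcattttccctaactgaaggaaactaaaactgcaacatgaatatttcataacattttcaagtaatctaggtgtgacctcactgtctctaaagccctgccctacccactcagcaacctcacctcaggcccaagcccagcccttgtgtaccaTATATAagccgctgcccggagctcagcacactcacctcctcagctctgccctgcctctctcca
Krt5: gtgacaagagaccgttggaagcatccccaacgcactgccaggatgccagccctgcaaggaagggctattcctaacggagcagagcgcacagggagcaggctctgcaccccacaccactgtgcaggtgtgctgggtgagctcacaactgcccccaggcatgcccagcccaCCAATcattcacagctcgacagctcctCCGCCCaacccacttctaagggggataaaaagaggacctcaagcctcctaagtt

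The Krt6c window held 1 match, TATATA at 63 bases before the start, which reads the same on both strands. The Krt5 window held CCAAT at 81 bases and an Sp1 match at 54 bases. Of 33469 rat windows of this length, 24.2% held TATANA, 34.0% CCAAT, 30.5% GGGCGG, 12.6% GCCNNNGGC and 6.34% TGANTCA. A match is a description of these letters and says nothing of binding.

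Each wound keratin was also set against a basal keratin within the sample, which removes what both share. The difference of Krt6c and Krt5 was -2.40, 2.57, -3.72 and -2.87 in sham and 2.87, 2.59, 3.71 and -2.42 in untreated samples. In high-dose samples it was 3.10, 2.28, 2.72 and 3.60, in a narrower range than in the sham samples, and in omeprazole samples -2.76, 2.70, 2.35 and 0.11. Its change after surgery was 3.29 (two-sided exact permutation p = 0.086), and that of high-dose against sham was 4.53 (exact p = 0.057). The other pairs, Krt16 against Krt14 and Krt17 against Krt15, changed after surgery by 3.33 (exact p = 0.34) and 1.87 (exact p = 0.23). None of the 30 tests of 3 pairs passed after adjustment (lowest adjusted p = 0.55, by exact permutation). With 4 against 4 samples, or 3 against 4, the smallest p such a test allows is 0.029.

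Across the 19 samples the members fell into 2 sets by how they varied together. These correlations are descriptions over samples that share groups and arrays, and carry no p. Krt14 followed Krt17 (Pearson r = 0.95, Spearman rho = 0.90) and Itga6 (r = 0.80), and not Krt15 (r = 0.04) or Sox2 (r = -0.03). Krt15 followed Sox2 (r = 0.93), Tp63 (r = 0.84) and Col17a1 (r = 0.79). Krt5 lay between, with r = 0.74 to Krt14, 0.53 to Krt15, 0.69 to Tp63 and 0.71 to Col17a1. Since Krt16 splits into measured and unmeasured samples, its relations were read within the 12 samples that had it: r was 0.92 to Krt17, 0.83 to Krt14, 0.82 to Krt6c, 0.63 to Itga6, 0.09 to Krt15 and 0.20 to Sox2. Krt14, listed as a resting basal gene, thus varied across these samples with the wound keratins.

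**Figure D3:**
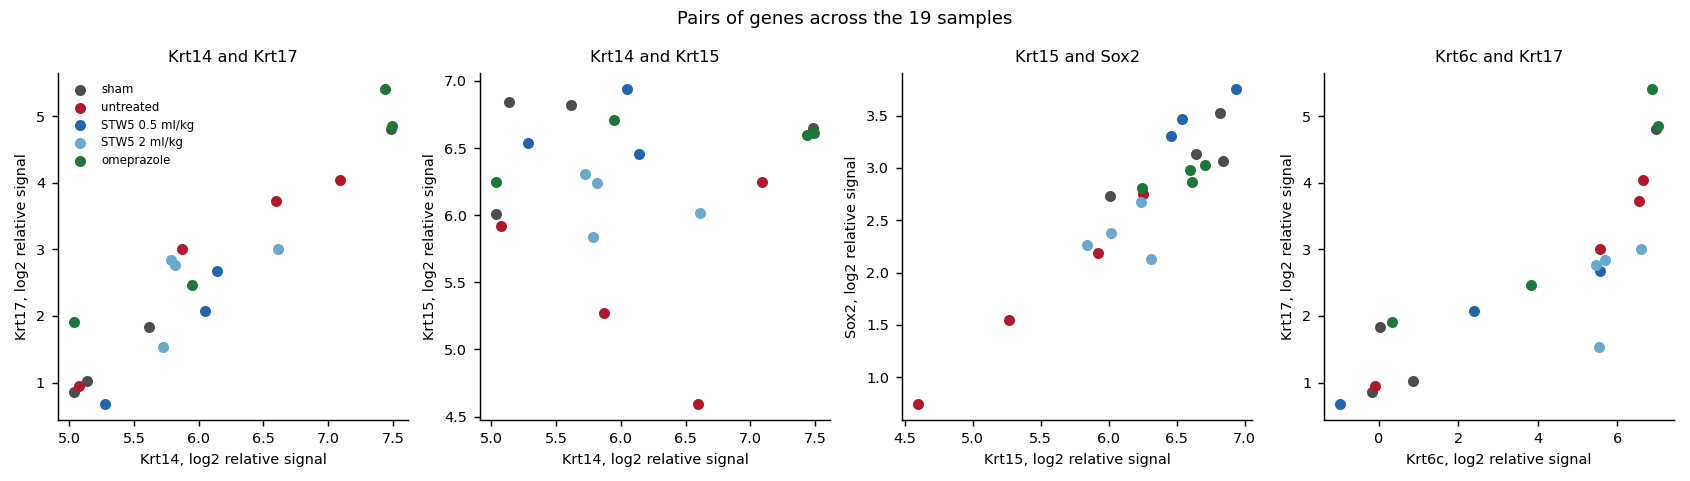
Log2 relative signal of one gene against another in the 19 samples, coloured by group. Krt14 and Krt17 lie along a line (r = 0.95), Krt14 and Krt15 do not (r = 0.04), and Krt15 and Sox2 do (r = 0.93). Krt6c spreads widely within each group except the high-dose one.

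Among 12730 other genes with established symbols, those most like Krt14 over the 19 samples were Dsc2, which encodes a desmosomal cadherin (r = 0.92), Atp11a (0.91), Krt12 (0.90), Bnc1, a transcription factor of basal keratinocytes (0.90), and Erich4 (0.90). Most like Krt17 were Lamb3, a laminin chain of the basement membrane (r = 0.91), Chst5 (0.91), Krt12 (0.91), Cwh43 (0.91) and Dsc2 (0.88). Most like Krt16 were Krt6c (r = 0.97), Il24, a cytokine of the interleukin 10 family (0.96), Nppb, a natriuretic peptide (0.96), Chst5 (0.91) and Cwh43 (0.91). Krt16 values below background enter these last figures, so these figures include its unmeasured samples. Most like Col17a1 were Glce (r = 0.93), Fgfr2, a fibroblast growth factor receptor of epithelia (0.92), Ovol2, an epithelial transcription factor (0.90), Trappc10 (0.89) and Serinc5 (0.89). Most like Sox2 were Slc16a11 (r = 0.97), Emp2 (0.97), Phyhip (0.96), Slc52a3, a riboflavin transporter (0.96), and Rab15 (0.96).

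The fall of the 4 basal genes went with a fall of most genes in a list of epithelial genes, called pan-epithelial here. Like the other lists, it was chosen with earlier results of these data known. Of 15 pan-epithelial genes, 13 were lower after surgery and 0 higher, with a median log2 change of -1.04 against -0.08 over all genes tested. Spint1, a protease inhibitor of epithelial surfaces, fell by 1.46 (SE 0.27, limma adjusted p = 0.0011), Grhl2, an epithelial transcription factor, by 1.40 and Dsp, which encodes desmoplakin, by 1.53. All 15 were higher than in untreated rats under low-dose STW5 (median 1.30 against 0.17 over all genes) and under omeprazole (median 1.05 against 0.10), and 0 under the high dose (median 0.41). Without untreated replicate 1 the counts were 9 lower after surgery and 6 higher under omeprazole. Between the doses 14 of 15 were lower at the high dose, and 1 without low-dose replicates 1-2.

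Set relative to the mean of these 15 genes on each array, the 4 basal genes no longer differed past the threshold after surgery, with changes of -0.11 for Col17a1, -0.21 for Sox2, 0.02 for Krt15 and 0.11 for Tp63 (limma adjusted p of 0.73, 0.50, 0.93 and 0.68), so Krt15 and Tp63 changed sign. On that reference the median of all genes moves by 1.10 after surgery, and 63.6% of all genes were higher and 0.794% lower. Krt14 was then higher by 1.43 (limma adjusted p = 0.015), Krt17 by 1.89 (0.039) and Krt6c by 3.84 (0.045), while Krt16 at 4.77 had an adjusted p of 0.069. The median change of all genes was 1.01 on this reference. Which genes passed, and in which direction, thus depended on the reference, and the share of epithelium in each sample was not measured.

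For low-dose STW5 the same reference moved the median of all genes by -1.43, with 73.8% of all genes lower and 0.728% higher. The 4 basal genes were then at 0.27 for Sox2, -0.30 for Krt15, -0.40 for Tp63 and -0.51 for Col17a1 and did not pass, and the last 3 changed sign. Krt5, Krt14, Itga6 and Krt17 were lower by values of -1.26, -1.77, -1.23 and -2.55 (limma adjusted p of 0.0028, 0.0058, 0.0080 and 0.011). Under omeprazole, where the median of all genes moved by -1.06, no member passed, with Col17a1 at 0.18, Sox2 at 0.05, Krt15 at -0.03 and Tp63 at -0.27. There, 59.6% of all genes were lower and 1.2% higher.

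**Figure D4:**
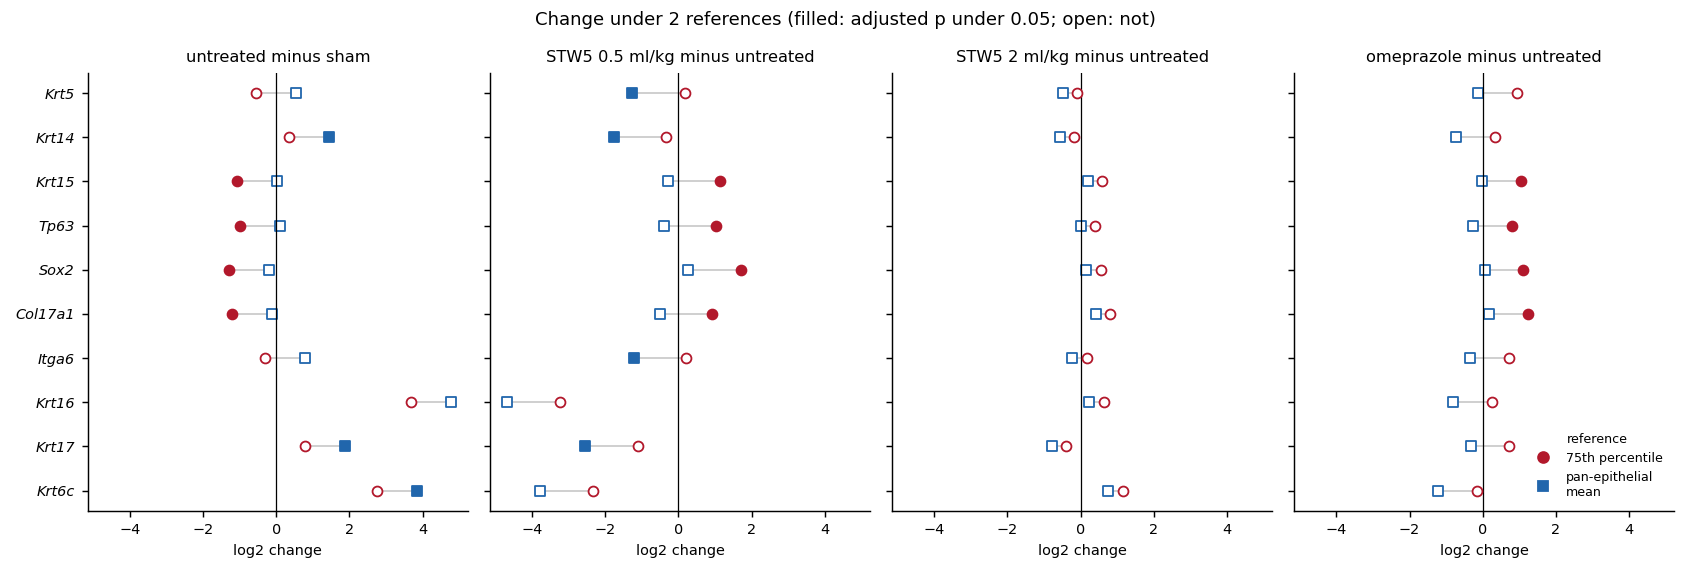
Log2 change of each gene (x axis) in 4 comparisons, relative to the 75th percentile of the array (red circles) and relative to the mean of 15 pan-epithelial genes (blue squares); filled symbols have an adjusted p under 0.05. Krt15, Tp63, Sox2 and Col17a1 move to near 0 after surgery on the second reference, where Krt14, Krt17 and Krt6c become filled, beside 63.6% of all genes called higher.

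Transcription factors that act beside Tp63 and Sox2 in squamous epithelium moved the same way. Of 10 measured, 8 were lower after surgery and 0 higher (median -1.10). Pax9, a foregut factor, changed by -1.31 ± 0.30 (limma adjusted p = 0.0034), Klf5 by -1.12, Grhl1 by -1.76 and Grhl3 by -1.16. Under low-dose STW5 9 of 10 were higher (median 1.62), and under omeprazole 9 of 10 (median 1.16), with Grhl3 at 1.68 and 1.32. Under the high dose 0 were called (median 0.54).

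Suprabasal keratins, made by cells that have left the basal layer, also fell. Of 7 measured, 6 were lower after surgery (median -1.75), among them Krt1 at -3.06 ± 0.57 (limma adjusted p = 0.0011), Krt78 at -1.84, Krt23 at -1.75 and Krt80 at -1.63. Under low-dose STW5 all 7 were higher (median 2.26), and under omeprazole 6 (median 1.40), of which 2 remained without untreated replicate 3.

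Genes of basement membrane attachment beside Col17a1 and Itga6 did not fall with Col17a1. Of 9 measured, 0 were lower and 1 higher after surgery (median -0.18), Itgb1, the integrin beta 1 chain, at 0.75 ± 0.24 (limma adjusted p = 0.024). Itgb4, the partner of Itga6, changed by -0.66 ± 0.34 (adjusted p = 0.15) and Fermt1, which encodes kindlin 1, by -0.85 ± 0.34 (adjusted p = 0.068). Without untreated replicate 2, 2 were lower. Under low-dose STW5 Itgb1 changed by -1.43 ± 0.26 and Lama5, a laminin chain, changed by -0.76 ± 0.27 (limma adjusted p of 0.00064 and 0.038).

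Of 20 measured genes of activated keratinocytes, 8 were higher and 2 lower after surgery (median 0.45). The 2 became 0 without untreated replicate 4 and 5 without untreated replicate 2. Under low-dose STW5 3 were higher and 5 lower, and under omeprazole 1 and 5 (1 lower without untreated replicate 3). Of all genes, 15.0% were higher and 17.9% lower after surgery, 21.7% and 15.9% under low dose, and 15.6% and 12.2% under omeprazole. The 2 lower after surgery (10%), the 3 higher under low dose (15%) and the 1 higher under omeprazole (5%) lay below these shares. The leading ones of the 20 genes were Plaur, the urokinase receptor, at 4.41 ± 0.83 (limma adjusted p = 0.0011), Fosl1, an AP-1 subunit, at 3.06, Mmp10, a matrix protease, at 3.00 and Itga5 at 2.19. Leukocytes and fibroblasts also express some of these 4, Plaur and Itga5 among them. Of 8 leukocyte markers, 7 were higher after surgery (median 2.86), and their mean value per sample, with each gene centred on its mean, was 1.14 to 2.75 in untreated samples against -1.78 to 0.01 in sham samples. Tyrobp changed by 3.60, Aif1 by 2.86 and Cd68 by 2.86. Leukocyte markers were lower in 7 of 8 under low-dose STW5 and in 7 of 8 under omeprazole, and in 2 of 8 under the high dose (1 without untreated replicate 1, 4 without untreated replicate 2). Between the doses 5 of 8 were higher at the high dose (1 without low-dose replicates 1-2). Their part in the results on the basal genes was not tested. Of 16 proliferation genes 7 were higher after surgery (median 0.66) and 0 without sham replicate 1. Of 4 simple epithelial keratins, 0 were called (median 0.84).

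Of 9 skeletal muscle markers 5 were lower after surgery (median -1.20), and of 6 smooth muscle markers 4 (median -1.25). Of 6 fibroblast markers 1 was higher (median 0.83), and of 4 endothelial markers 2 (median 0.86). Under low-dose STW5 5 of 9 skeletal muscle markers were higher than in untreated rats, and 5 of 6 fibroblast markers (median -1.91) and 2 of 4 endothelial markers were lower. Under omeprazole 4 skeletal and 3 smooth muscle markers were higher, and 1 fibroblast and 2 endothelial markers lower. Between the doses 5 of 6 fibroblast markers were higher at the high dose (median 1.81), and 1 without low-dose replicates 1-2. Of 4 measured gastric columnar markers 0 were called. The part of these lists in the results on the basal genes was not tested either.

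**Figure D5:**
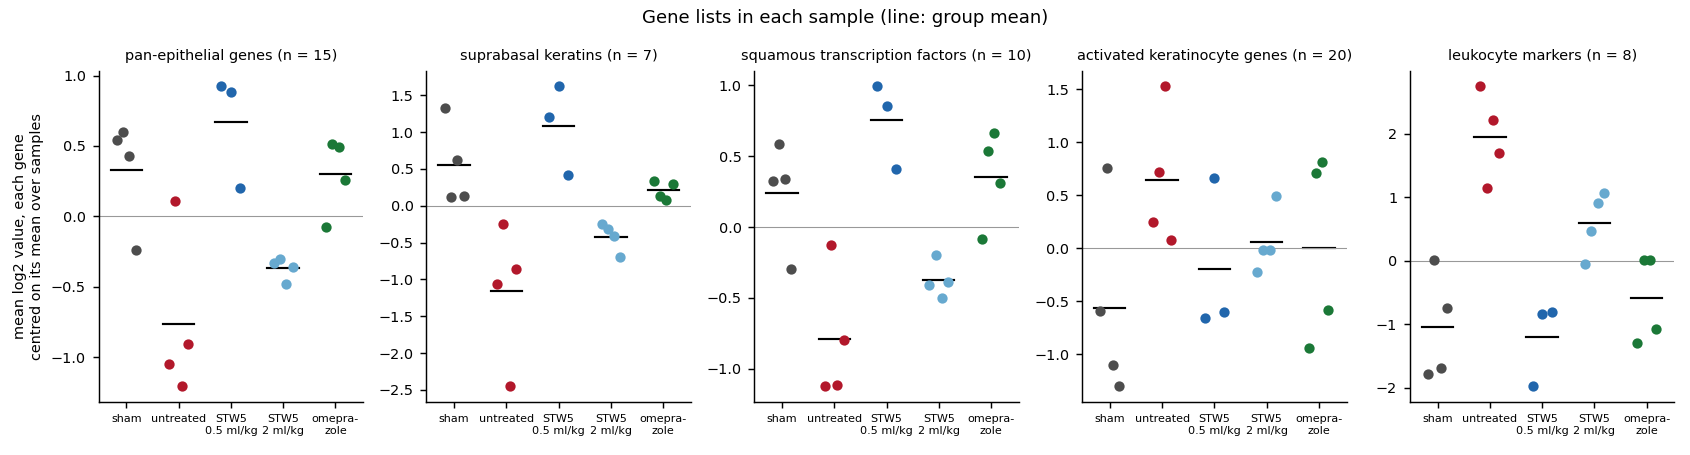
Mean log2 value of 5 gene lists per sample (y axis, each gene centred on its mean over the 19 samples) by group (x axis); lines are group means. Group means of the pan-epithelial, suprabasal keratin and squamous factor lists are lowest in untreated samples. Untreated replicate 2 is at 0.11 for the pan-epithelial list, above sham replicate 4 at -0.24. Leukocyte markers lie between 1.14 and 2.75 in untreated samples and between -1.78 and 0.01 in sham samples.

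Where a member had a second probe, the probes mostly moved alike. The second Col17a1 probe changed after surgery by -1.23 ± 0.25 (limma adjusted p over all probes = 0.0020). It also passed for high dose against sham, at -0.82 ± 0.25 (adjusted p = 0.041), where the first probe did not, at -0.41 ± 0.27. The second Sox2 probe gave -1.21 ± 0.48 (adjusted p = 0.068), with 1.68 under low-dose STW5 and 1.67 under omeprazole. The second Tp63 probe gave a smaller change of -0.36 ± 0.18 (limma adjusted p = 0.14) where the first gave -0.98, and it passed in neither drug comparison (0.44 and 0.45). The call on Tp63 thus rests on 1 of 2 probes. The 3 probes of Krt6c changed after surgery by 2.74, 2.70 and 3.10, none past the threshold.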

How the data were processed

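Per the file headers, the authors scanned one-colour Agilent arrays and obtained a background-subtracted signal, in units of intensity, with Agilent Feature Extraction 10.7.3.1. The authors' deposited value table holds a ratio of each signal to the array's median and served as an alternative. Which dose its 8 STW5 columns carry is unknown.

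Of 58717 non-control features, spots of a probe were averaged as log2 without outlier spots, giving 30367 probes. The filter asked for 4 or more arrays on which 50% or more of a probe's spots exceeded background clearly (19915 probes passed), and a gene took its probe of highest mean. Members were found by the array's gene name. Values were log2 signal minus the array's 75th percentile. Groups were compared with limma 3.58.1 (R 4.3.3) in 1 fit of 19 samples and 13597 genes, with Benjamini-Hochberg adjustment at 0.05. Pair differences were tested by exact permutation. Same-numbered arrays of the 2 STW5 doses deviated together in all 4 pairs (correlations 0.12 to 0.24), so the blocked fit stands beside that comparison. That choice was made from these same data and does not show that same-numbered samples belong together. A single correlation elsewhere was as high as 0.58 (sham and low-dose replicate 4). In other pairs of groups at least 1 correlation was under 0.1. The code was tested on simulated data. Where nothing ties samples to separate animals beyond the labels, p-values measure the spread between these samples, and the number of arrays limits precision. Motifs and members were matched in Python 3.11.15, and the TATA letters were chosen after the sequences were seen. The averaging of 2 near-identical arrays used a spread ratio under 1.5.

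The members and gene lists were chosen with earlier results of these data known. Named list genes were up to 4 of lowest p in a list, and markers of other cell types were named by highest mean signal. Likeness was Pearson's r over the 19 samples.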

Additional observations from a re-analysis of the deposited data

Results flagged for a closer look

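In 52 groups of 4 samples tested for a sample far from the others by its gap over the group's range, chance flags about 1 in 20. In the sham group, replicate 2 stood apart for Krt16 at 1.89, for Krt6c at 6.98 and for Krt16 minus Krt14 at -5.60. In the untreated group, replicate 4 stood apart for Krt16 at -7.50, which was not well above background, for Krt6c at -0.10 and for Krt16 minus Krt14 at -12.57.

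High-dose STW5 replicate 4 stood apart for Krt14 at 6.61 and for Itga6 at -0.16, replicate 1 for Krt17 at 1.53 and replicate 3 for Tp63 at 2.42. Omeprazole replicate 1 stood apart for Col17a1 at 2.37, with the other 3 between 3.08 and 3.09. Sox2 differed between the STW5 doses by -1.15 (high minus low dose), a difference that was itself tested and whose dose labels are unsettled.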

How the results depend on the processing

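The count of members changed moved by over 1.5 times under 5 alternatives, besides leaving out a sample. With array weights it was 6 for high dose against sham, 2 for omeprazole against sham, 3 between the doses (18.5% of all genes higher, 28.2% lower) and 1 for high dose against omeprazole (7.83% and 8.76%). With the value table's own labels it was 0 for low dose and 4 for high dose against untreated, and Sox2 between the doses was 1.28. In fits of only the 2 groups compared it was 1 for untreated against sham, 1 for low dose and 1 for omeprazole against untreated, 2 between the doses and 1 for high dose against omeprazole. The shares of all genes in the last 2 of these comparisons are not given here, so their counts are not read as results on the members. Relative to the pan-epithelial mean the count of members was 2 for untreated against sham, 0 for omeprazole against untreated and 2 between the doses, where 45.6% of all genes were higher and 0.11% lower. Between the doses Col17a1 and Itga6 were the members called there, both higher at the high dose, and Sox2 was not called.

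Signs of called results that turned on that reference were Krt15 at 0.025 and Tp63 at 0.11 for untreated against sham; for low dose against untreated, Krt5 at -1.26, Krt15 at -0.30, Tp63 at -0.40, Col17a1 at -0.51 and Itga6 at -1.23; for omeprazole against untreated, Krt15 at -0.027 and Tp63 at -0.27; and between the doses, Col17a1 at 0.92 and Itga6 at 1.00. This reference adds the same constant to every gene of a comparison, which turns these signs.

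Leaving out 1 sample gave 2 to 4 members for low dose, 0 to 3 for high dose and 3 to 5 for omeprazole against untreated, 3 to 4 for untreated against sham and 0 to 1 between the doses. With the replicate block on all 20 arrays 2 members were called between the doses and 5 for omeprazole against untreated. In that fit 17.7% of all genes were higher and 12.7% lower for omeprazole against untreated. It counts low-dose replicates 1 and 2 separately. The other member counts did not move past the limit used above, but not all stayed equal. With quantile normalization 2 gene calls were lost, and without the filter on dim probes 1 was lost. Same-numbered samples had correlations of deviations from -0.32 to 0.58, and 5 of 20 arrays correlated best with their own number, and only between the STW5 doses did all 4 pairs exceed 0.1. Differences that passed in neither fit changed sign in 65 gene results when 1 sample was left out and in 34 with the value table. Keratin pairs, run under 7 alternatives, passed in none, but the smallest p of 0.029 over 30 tests makes this no sign of stability. Krt16 lay below background on 8 of 20 arrays, which limits every difference given for it.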
